A study of Homo sapiens with 8 samples.

Results

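GEM, RRAD, REM1 and REM2, the RGK family of small GTPases, were measured together with 6 voltage-gated calcium channel subunits (CACNA1A, CACNA1C, CACNA1D, CACNA1H, CACNB2 and CACNB3) in thyroid cells in which miR-375 was raised or blocked. Members were the array probes that carried 1 of these 10 gene names, which gave 15 probes of the 50599 probes on the array and 10 of its 36337 gene names. The study used 8 one-colour gene expression arrays, 2 in each of 4 groups. Nthy-ori 3-1, an immortalized line of normal follicular thyroid cells, received pre-miR-375, which the paper also calls a miR-375 mimic (5 nM in the labels), or was a control. TT, a line from a medullary thyroid carcinoma, which is a tumour of calcitonin-secreting C cells, received antagomiR-375, an inhibitor of the microRNA (20 nM in the labels), or was a control. RNA was taken 48 h after transfection in all groups, and each group is a single line of cultured cells. The methods give higher concentrations than the labels for both agents. The labels call the controls CTL without naming a reagent, and the methods name a control antagomiR for transfected TT cells in general but only pre-miR-CTL for the arrays. The RNA integrity number was 8 in the TT controls (2 arrays) and 9 in every other group, so integrity and treatment cannot be told apart in TT cells.

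RGK proteins bind the beta subunits of high-voltage-activated calcium channels and inhibit the current through them, by lowering the number of channels at the membrane and by holding channels shut. They also bind calmodulin and 14-3-3 proteins, and GEM also acts on the actin skeleton. A channel of this kind has a pore subunit from a CACNA1 gene, a beta subunit (CACNB) and an alpha2delta subunit (CACNA2D), while T-type pores such as CACNA1H open at low voltage and need no beta subunit. In C cells, calcium entry through such channels is a part of the coupling of extracellular calcium to calcitonin release.

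The mature microRNA that the treatments changed is printed because its seed, bases 2 to 8 in capitals, is what pairs with target transcripts (RefSeq, GRCh38.p14, minus strand, chr2:219001648-219001669).
hsa-miR-375-3p: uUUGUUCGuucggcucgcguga

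Levels are normalized log2 signals, so that 1 unit is a doubling; they were compared between arrays for 1 probe and not between probes. A probe was called well above background as the scanner software marked it. Of the 15 probes, 5 were well above background on all 8 arrays (GEM, REM2, CACNA1H, CACNB3 and 1 of the 4 CACNA1C probes), 6 on some and 4 on none. The 4 were the only REM1 probe and all 3 CACNB2 probes, so those 2 genes were not well above background in either line. REM1, an RGK GTPase known from the heart, read between 1.66 and 2.43 over the 8 arrays, and the CACNB2 probes, for the main beta subunit of heart channels, read between 1.79 and 3.10.

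**Figure D1:**
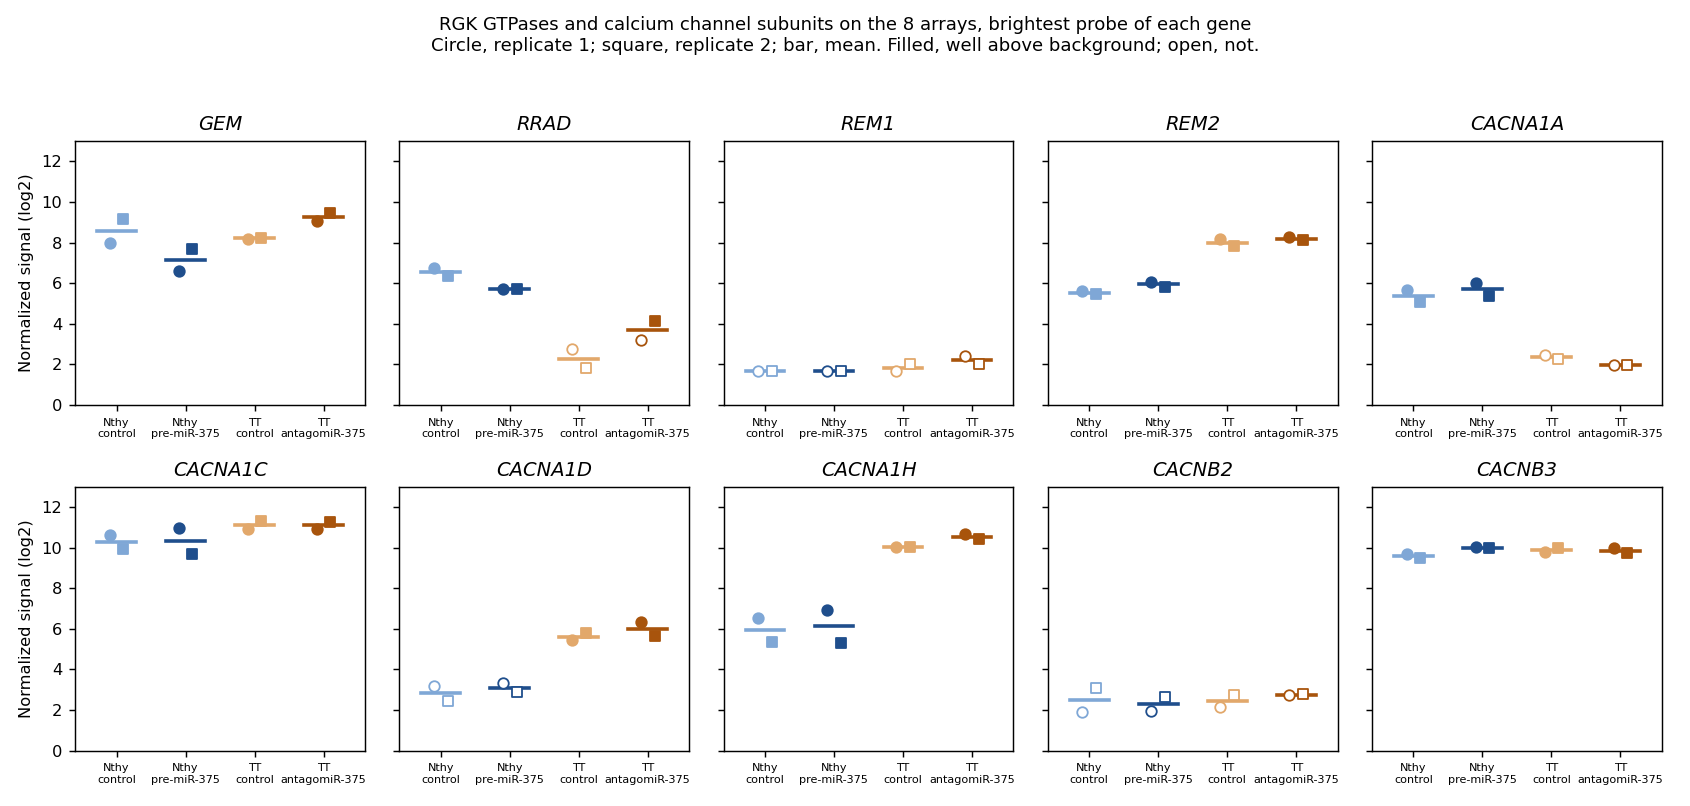
Normalized signal (log2, y axis) of the brightest probe of each of the 10 genes in the 4 groups, with a circle for replicate 1, a square for replicate 2 and a bar for the mean; open symbols are not well above background. GEM lies lower with pre-miR-375 in Nthy-ori 3-1 (6.58 and 7.67) than in their controls (7.96 and 9.14) and higher in TT cells with antagomiR-375 (9.07 and 9.44) than in theirs (8.18 and 8.24), while REM2 and CACNA1H separate the lines.

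Spots well above background numbered 32071 to 37340 per array of 62976 spots, and no spot was saturated. C cell markers matched the label of TT cells in 7 of 8 cases: the 8 of 9 markers found on the array were well above background on both TT control arrays, and CALCA, the calcitonin gene, was at least 18680-fold higher there than in Nthy-ori 3-1 controls (adjusted p = 0.000170, limma, n = 2 against 2). The exception was GFRA1, a co-receptor of RET, which was lower in TT (-3.70, adjusted p = 0.000618), while the other 7 were higher. The follicular label of Nthy-ori 3-1 was met in part. PAX8 and FOXE1, transcription factors of follicular cells, were higher in Nthy-ori 3-1 (PAX8 by a log2 difference, TT minus Nthy-ori 3-1, of -5.25 and FOXE1 at least 35.7-fold). Thyroglobulin (TG, by 4.26), HHEX (by 4.60) and DIO1 (at least 5.26-fold) were higher in TT. Thus, of the 7 follicular markers tested, 3 were called against the label and 2 with it. The TSH receptor (TSHR) was well above background on none of the 8 arrays. Of the 4 mesenchymal markers tested, VIM (-11.72), FN1 and COL1A1 were higher in Nthy-ori 3-1 and CDH2 was higher in TT (0.87, adjusted p = 0.0335).

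The first comparison asked which transcripts differ when miR-375 is raised in cells of the follicular line. GEM, the RGK GTPase induced by mitogens and stress in many cells, had the signals 7.96 and 9.14 on the control arrays and 6.58 and 7.67 on the pre-miR-375 arrays. Each treated array was below each control array, and the second replicate was about 1 unit above the first in each group. The log2 difference was -1.43 (SE 0.117, 95% confidence interval -1.79 to -1.07), a 2.69-fold lower signal, and the replicates gave -1.39 and -1.47. Its adjusted p of 0.0785 (limma with the replicate as a block, Benjamini-Hochberg over 27716 probes) missed the threshold of 0.05, and no probe on the array had a smaller one. Over 13 alternative settings the difference lay between -1.47 and -1.06, and the adjusted p between 0.00318 and 0.627. It passed in 6 of them: 0.0178 over probes well above background on all 4 arrays, 0.00646 with normexp background correction, 0.0133 without background correction, 0.0109 on the deposited values, 0.00318 with a variance trend over intensity and 0.0241 with both lines in a single fit. With 2 arrays against 2, an exact permutation test of a single probe cannot give a two-sided p below 0.333. GEM is 1 of the genes that the study itself picked on these arrays, so its directions in the treatment comparisons are not independent evidence.

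RRAD, the RGK GTPase first found in skeletal muscle of diabetic subjects (probe at chr16:66956175-66956234, hg19, minus strand), read 6.75 and 6.35 in controls and 5.70 and 5.72 with pre-miR-375. The groups did not overlap. The log2 difference was -0.84 (SE 0.164, 95% confidence interval -1.35 to -0.34, adjusted p = 0.110), with -1.06 and -0.63 in the replicates. Its adjusted p passed in 3 of 13 alternatives (0.0452 over probes well above background on all 4 arrays, 0.0490 with normexp and 0.0496 with the trend), and its value fell in size to -0.44 with normexp.

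REM2, the RGK GTPase of neurons and endocrine cells (chr14:23356759-23356818, hg19, plus strand), read 5.61 and 5.45 in controls and 6.06 and 5.81 in treated cells. The values lay the other way from GEM and RRAD and the groups did not overlap. The log2 difference was 0.41 (SE 0.116, adjusted p = 0.162), with 0.45 and 0.36 in the replicates.

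Among the channel subunits, CACNB3, a beta subunit to which RGK proteins bind (chr12:49222321-49222380, hg19, plus strand), read 9.67 and 9.49 in controls and 10.01 and 9.99 with pre-miR-375. Those groups did not overlap either, with a log2 difference of 0.42 (SE 0.122, adjusted p = 0.165; 0.0487 with the trend, the only alternative of 13 in which it passed). CACNA1A, the pore of P/Q-type channels, gave 0.32 (adjusted p = 0.2085) and its groups overlapped. The CACNA1C probe that was bright in both lines, for the L-type pore Cav1.2, gave 0.06 with a 95% confidence interval of -0.62 to 0.73, and the replicates were of opposite sign (0.39 and -0.28). CACNA1H, the T-type pore Cav3.2, gave 0.17 (-0.36 to 0.70), again with opposite signs (0.41 and -0.06). These intervals reach to changes of over 0.6 in size, so the arrays did not resolve smaller ones.

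In all, 7 of the 15 probes, of 7 genes, could be tested in Nthy-ori 3-1 cells, and none passed an adjusted p of 0.05, as was so for all 27716 probes (0% called). At an unadjusted p of 0.05, 2 were higher (REM2 and CACNB3) and 2 lower (GEM and RRAD), against 13.4% of all probes in each direction. The same 4 were those whose groups did not overlap, against 18.8% of all probes higher and 17.6% lower. The median difference over the 7 was 0.17, and over all probes 0.02.

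Markers of other cell types also differed in value with this treatment, and none of them passed the adjusted p. Of the 8 C cell markers, 6 were well above background on both pre-miR-375 arrays and 2 on both control arrays. CHGA, CHGB and SCG3, genes of secretory granules, were not well above background in controls and were at least 1.58-fold, 2.81-fold and 2.33-fold higher on the treated arrays (adjusted p = 0.116, 0.0885 and 0.155), and CALCA read 3.91 and 3.57 in controls and 8.12 and 4.51 in treated cells. Their summed linear signal was 4600 to 5500 in controls and 4500 to 5260 in treated cells; without GFRA1, the brightest of them in this line, it was 117 to 154 and 276 to 462. CEACAM5 was not well above background on any of the 4 arrays. Of the 5 epithelial markers, the keratins KRT8, KRT18 and KRT19 gave -2.00, -0.88 and -0.83. EPCAM gave -0.13 with overlapping groups, and CDH1 was not well above background. The summed signal of the 5 was 79900 to 101000 in controls and 40700 to 53500 with pre-miR-375. That sum is led by KRT18, the brightest of them, and says little of the others. The part of these markers in the values of GEM and RRAD was not tested. In bulk RNA, a lower level per cell and fewer cells that carry a transcript cannot be told apart.

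**Figure D2:**
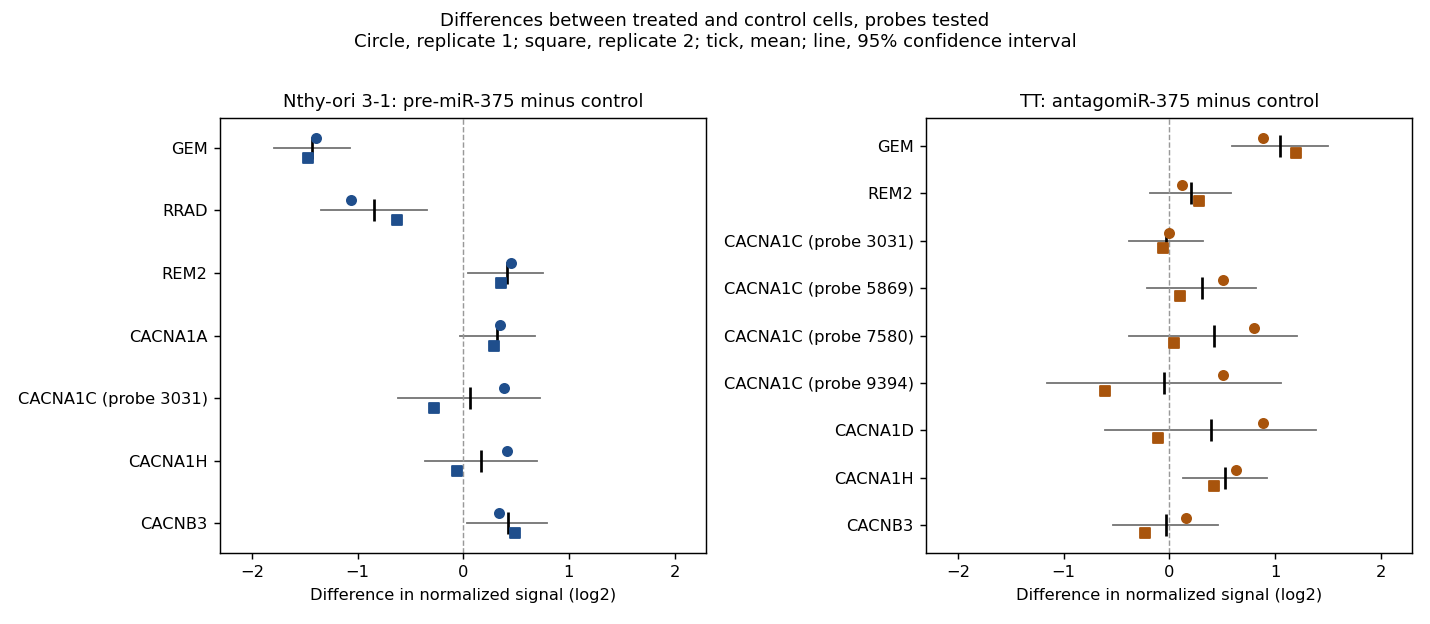
Log2 difference, treated minus control (x axis), of each probe tested (y axis; the 4 digits beside CACNA1C end the probe name), with a circle for replicate 1, a square for replicate 2, a tick for the mean and a line for the 95% confidence interval, in Nthy-ori 3-1 cells (left) and TT cells (right). GEM lies farthest from 0 in each, at -1.43 and 1.05.

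The second comparison asked what differs when the microRNA is blocked in TT cells. GEM read 8.18 and 8.24 in controls and 9.07 and 9.44 with antagomiR-375. The control arrays lay within 0.1 of each other and both treated arrays above them. The log2 difference was 1.05 (SE 0.140, 95% confidence interval 0.59 to 1.50), a 2.06-fold higher signal, with 0.89 and 1.20 in the replicates. Its adjusted p was 0.341 (limma, Benjamini-Hochberg over 30293 probes), which no probe undercut and which other probes shared. Over 13 alternatives the difference lay between 0.89 and 1.20. It passed only with the variance trend (adjusted p = 0.0175). Among the settings that kept both replicates, its adjusted p reached 0.512, over all probes without a filter. The same order of RNA integrity (8 in controls, 9 in treated cells) stands beside every value in TT cells, and its part was not tested.

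RRAD was not well above background in TT cells except on the second antagomiR-375 array, which read 4.15. The other 3 arrays read 2.77, 1.80 and 3.19, and the probe was not tested. REM2 read 8.16 and 7.84 in controls and 8.28 and 8.12 in treated cells, and the groups overlapped (0.20, 95% confidence interval -0.18 to 0.58).

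CACNA1H (chr16:1271711-1271770, hg19, plus strand) read 10.02 and 10.01 in TT controls and 10.65 and 10.44 with antagomiR-375. Both treated arrays were above both controls, with a log2 difference of 0.53 (SE 0.123, 95% confidence interval 0.13 to 0.92, adjusted p = 0.346; 0.0490 with the trend, the only alternative of 13 in which it passed). CACNA1D, the L-type pore Cav1.3 of endocrine and pacemaker cells (chr3:53845581-53845640, hg19, plus strand), read 5.46 and 5.77 in controls and 6.35 and 5.66 in treated cells. The replicates were of opposite sign, 0.89 and -0.11, and the groups overlapped. CACNB3 gave -0.03 (-0.53 to 0.46), and CACNA1A was not well above background on any TT array.

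Of the 15 probes, 9 of 6 genes were tested in TT cells and none passed an adjusted p of 0.05 (0% of 30293 probes called). GEM and CACNA1H were higher at an unadjusted p of 0.05, against 6.99% of all probes, and none was lower, against 6.70%. The groups did not overlap for 4 probes, all higher (GEM, CACNA1H and 2 CACNA1C probes), against 21.0% of all probes higher and 22.6% lower. The median difference was 0.31 over the 9 probes and -0.01 over all. All 8 C cell markers were well above background on the 4 TT arrays, with a summed linear signal of 495000 to 553000 and of 551000 to 552000. That sum is led by CALCA, the brightest of them (18.49 to 18.61), and says little of the others, such as CEACAM5 (0.90) and RET (-0.19). The epithelial markers, led by EPCAM and KRT18, summed to 83100 to 87500 and to 103000 to 107000, and their part was not tested.

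The treatments share no arrays, and 5 member probes were tested in both. GEM gave -1.43 with pre-miR-375 and 1.05 with the inhibitor. REM2 gave 0.41 and 0.20, CACNA1H 0.17 and 0.53, CACNB3 0.42 and -0.03, and the bright CACNA1C probe 0.06 and -0.03. Among the 5, only GEM had differences of opposite sign that were both over 0.1 in size. The methods' limits on size can be set beside this: an average signal of at least 6 with a log2 difference of -1 or less in Nthy-ori 3-1, and an average above 6 with 0.6 or more in TT. They were met by 2.49% of the probes tested in Nthy-ori 3-1, by 1.98% of those in TT, and in both by 41 of 25376 probes (0.162%), with GEM the only member. In Nthy-ori 3-1 the methods also required an adjusted p of 0.05 or less, which was not applied to this count. GEM missed that limit in the main fit (adjusted p = 0.0785, limma), as did every probe tested there. The paper's selected genes were also predicted targets of miR-375, which was not required here. Since GEM was picked on these arrays by rules that include the limits on size, the count of 41 describes its place and is no support.

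**Figure D3:**
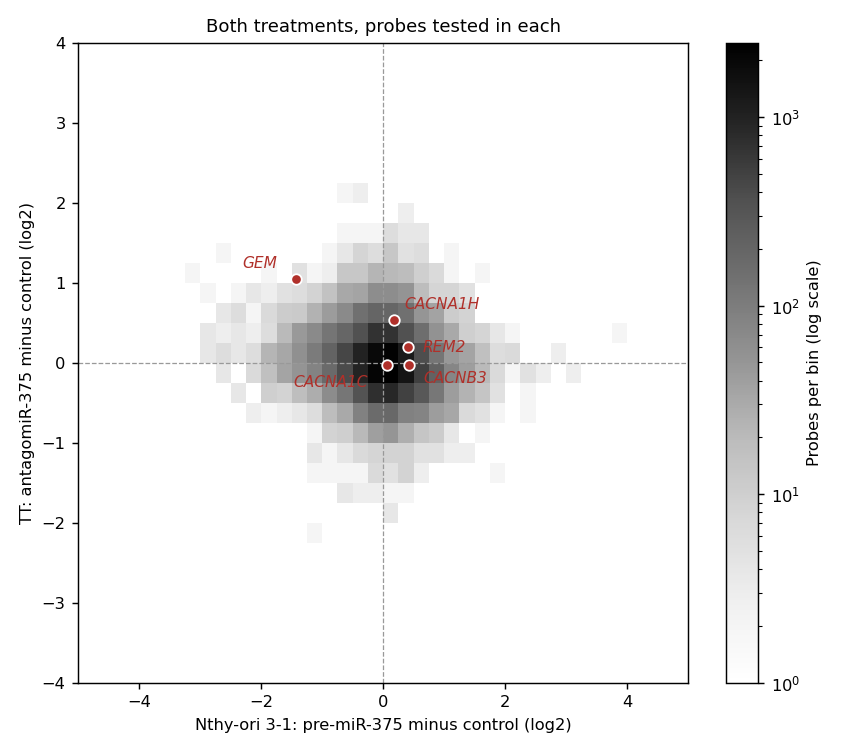
Log2 difference in Nthy-ori 3-1 with pre-miR-375 (x axis) against that with antagomiR-375 in TT cells (y axis) for the 25376 probes tested in both, as counts per bin (grey, log scale), with the 5 member probes in red. GEM lies at -1.43 and 1.05, outside the dense centre that holds the other 4.

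The genes whose pattern over the 8 arrays was most like that of GEM were UBLCP1, a phosphatase of nuclear proteasomes (Pearson r = 0.978), KIAA2018 (0.974), TRIM55, a muscle RING finger protein (0.973), NBPF22P (0.971) and LRRFIP1 (0.968). They were ranked among 22565 genes well above background on at least 4 of the 8 arrays, of which 78 had r of 0.9 or more. The 8 arrays hold the lines, treatments and slides together, so r describes the pattern and carries no test. UBLCP1 read 11.11 and 11.73, then 10.11 and 10.77 with pre-miR-375, and 11.39 and 11.46, then 12.11 and 12.22 with the inhibitor. As for GEM, the second replicate read above the first in each group. None of the other members was among the 5, and the measured ones had r with GEM between -0.633 (CACNA1A) and 0.427 (REM2), a range in which CACNA1A, CACNA1D and RRAD include arrays below background.

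The third comparison set the control cells of the lines side by side. It gives the level of each gene in cells that received neither pre-miR-375 nor antagomiR-375. The lines were on different slides and differ in RNA integrity, so line, slide and integrity cannot be told apart. Among RGK genes, REM2 was the one that TT cells carried more of. It read 5.61 and 5.45 in Nthy-ori 3-1 and 8.16 and 7.84 in TT, with no overlap, a log2 difference of 2.47 (SE 0.217, adjusted p = 0.00202, limma over 31066 probes). Over 12 alternatives it lay between 1.44 and 2.63 and passed in each.

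RRAD was the reverse. It was well above background on both Nthy-ori 3-1 control arrays (6.75 and 6.35) and on neither of TT (2.77 and 1.80). The signal was at least 7.72-fold higher in Nthy-ori 3-1 (adjusted p = 0.00246). Throughout, an adjusted p beside such a minimum fold tests the fitted difference and not that fold. GEM was measured in both lines, at 7.96 and 9.14 against 8.18 and 8.24, and the groups overlapped, with -0.35 (SE 0.445, 95% confidence interval -1.56 to 0.87, adjusted p = 0.570). That value rested on the Nthy-ori 3-1 arrays: without the first it was -0.94, lower in TT, and passed (adjusted p = 0.0301), and without the second it was 0.25.

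Of the pore subunits, CACNA1H read 6.51 and 5.37 in Nthy-ori 3-1 and 10.02 and 10.01 in TT. The log2 difference of 4.07 (SE 0.432, adjusted p = 0.00336), a 16.8-fold higher signal in TT, was the largest of the members that both lines expressed well above background. CACNA1D was well above background in TT alone (5.46 and 5.77, against 3.18 and 2.45), at least 2.38-fold higher (adjusted p = 0.00438). CACNA1A (chr19:13317280-13317339, hg19, minus strand) was well above background in Nthy-ori 3-1 alone (5.65 and 5.09, against 2.47 and 2.26), at least 3.42-fold higher there (adjusted p = 0.00218). CACNB3 was bright in each line, at 9.67 and 9.49 against 9.81 and 9.97; the groups did not overlap, but the difference of 0.31 (95% confidence interval -0.23 to 0.85, adjusted p = 0.268) did not pass.

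CACNA1C had 4 probes on the plus strand of chromosome 12 (hg19), and they did not give the same answer. In 5′ to 3′ order they are A_33_P3249394 (chr12:2764321-2764380), A_33_P3297580 (chr12:2800077-2800136), A_23_P373031 (chr12:2801192-2801251) and A_33_P3825869 (chr12:2801250-2801309). The first of these lies 35756 bases before the second, and the last pair share 2 bases. The sequences of the first pair are printed as on the array, in lower case throughout, since they read the gene apart from the last pair, whose signals disagree.
A_33_P3249394: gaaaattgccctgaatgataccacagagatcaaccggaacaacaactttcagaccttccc
A_33_P3297580: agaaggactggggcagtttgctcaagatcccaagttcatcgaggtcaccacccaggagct

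The probe A_23_P373031 was bright on every array, with 10.60 and 9.94 in Nthy-ori 3-1 controls and 10.93 and 11.32 in TT controls. The difference of 0.86 (SE 0.317, adjusted p = 0.0947) did not pass; it passed in 1 of 12 alternatives, without the first Nthy-ori 3-1 control array (1.18, adjusted p = 0.0403). Its neighbour A_33_P3825869 read 1.84 and 1.83 in Nthy-ori 3-1 controls, not well above background, and 9.77 and 9.88 in TT controls. That signal was at least 44.2-fold higher in TT. The adjusted p of 0.000170 (limma) belongs to the fitted difference of 7.99, which rests on readings not well above background in Nthy-ori 3-1. Probes that lie side by side thus differed in whether Nthy-ori 3-1 cells gave a signal well above background, and which of them reads CACNA1C in that line was not tested.

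A_33_P3297580 read 1.67 and 2.35 in Nthy-ori 3-1 controls, not well above background, and 4.98 and 5.59 in TT controls, at least 1.90-fold higher (adjusted p = 0.00380). A_33_P3249394 was well above background on the second TT control array (4.39) and on none of the other 3 control arrays (3.31, 2.19 and 3.90), and was not tested. With pre-miR-375, the 3 probes other than A_23_P373031 were again not well above background. With antagomiR-375, A_33_P3825869 gave 0.31 (adjusted p = 0.470), A_33_P3297580 gave 0.42 (0.508) and A_33_P3249394 gave -0.05 (0.953), each with a wide interval (-0.21 to 0.82, -0.38 to 1.21 and -1.16 to 1.06).

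**Figure D4:**
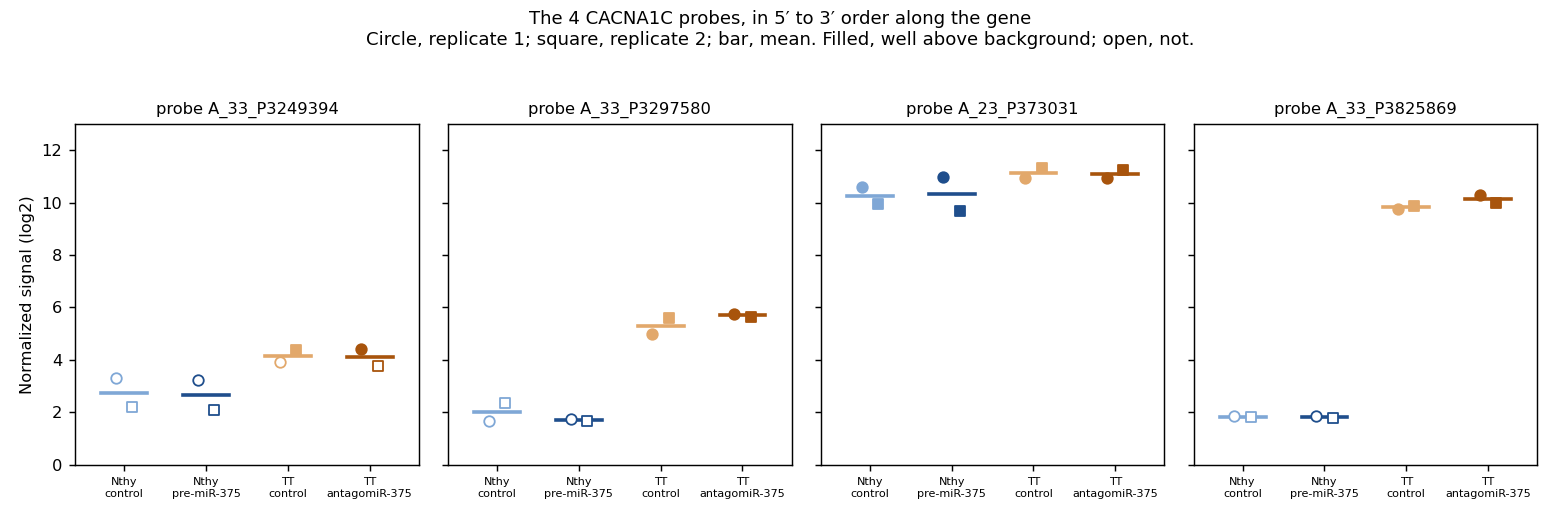
Normalized signal (log2, y axis) of the 4 CACNA1C probes in the 4 groups, in 5′ to 3′ order from left to right, with a circle for replicate 1, a square for replicate 2 and a bar for the mean; open symbols are not well above background. Only A_23_P373031 is filled in Nthy-ori 3-1 cells (9.67 to 10.99), while A_33_P3825869 reads 1.79 to 1.87 there and 9.77 to 10.28 in TT cells.

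Between the control cells, 10 member probes of 8 genes were tested. At an adjusted p of 0.05, 5 probes of 4 genes were higher in TT (REM2, CACNA1D, CACNA1H and 2 CACNA1C probes) and 2 lower (RRAD and CACNA1A), against 22.7% of all probes higher and 22.8% lower. Of these 7 probes, 5 were well above background in 1 line only and so passed the filter through the line where they were high, which leaves REM2 and CACNA1H as calls between measured levels. Over the 5 probes well above background on all 4 control arrays, 2 were called. The median difference was 1.67 over the 10 probes and -0.03 over all. The groups did not overlap for 7 probes higher and 2 lower, against 36.7% and 38.2% of all probes.

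The other channel genes and RGK partners were read from a list of 39 genes, each by its brightest probe. With pre-miR-375 in Nthy-ori 3-1, 29 could be tested and none passed the adjusted p; at an unadjusted p of 0.05, 3 were higher and 9 lower (41.4%, against 26.8% of all probes), with a median difference of 0.01. In TT cells with antagomiR-375, 32 were tested and none passed; 6 were higher and 2 lower at an unadjusted p (25.0%, against 13.7%), with a median of 0.17. Among them YWHAZ, the 14-3-3 protein zeta, is named after its values were seen, since it had the largest difference of the list with pre-miR-375. It read 12.53 and 12.96 in controls and 9.77 and 10.23 in treated cells, -2.74 (SE 0.115, adjusted p = 0.0785), and a second probe gave -2.58. With antagomiR-375 the same probes gave 0.37 and 0.02 (adjusted p = 0.393 and 0.939).

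Between control TT and Nthy-ori 3-1 cells, 34 of the 39 were tested, and 13 were higher in TT and 10 lower (67.6%, against 45.5% of all probes), with a median of 0.09. Several of those called, such as CACNA2D3, CACNG2, CACNG6 and STAC, were well above background in 1 line only. They passed the filter through the line where they were high. The 13 include CACNA2D4, for which no direction is given below. The list holds the brightest probe of each gene, while the share over all probes does not. Of the 4 alpha2delta subunits, which carry pores to the membrane, CACNA2D1, CACNA2D2 and CACNA2D3 were higher in TT. CACNA2D1 gave 3.08 (adjusted p = 0.00124). CACNA2D3 read 9.69 and 9.65 in TT against 2.17 and 3.21, at least 39.7-fold higher (adjusted p = 0.000674), and CACNA2D2 read 10.94 and 11.22 in TT against 4.61 and 3.48, of which the first alone was well above background (adjusted p = 0.000842). CACNA2D4 passed the test as well, but its TT signals (4.13 and 3.99) lay under the lowest signal well above background on the Nthy-ori 3-1 arrays (4.32 and 4.40), so no direction is given for it. Of the gamma subunits, CACNG2, the AMPA receptor partner stargazin, was at least 11.4-fold higher in TT (adjusted p = 0.000325) and CACNG6, a skeletal muscle type gamma subunit, at least 35.8-fold higher in Nthy-ori 3-1 (adjusted p = 0.000490). Of the 4 channel adaptors, 3 were lower in TT (STAC, STAC2 and AHNAK), with AHNAK, a giant scaffold that binds beta subunits, at -5.81 (adjusted p = 0.000221), and 1, STAC3, was higher. The other pore subunits gave 2 higher (CACNA1G, a T-type pore, at 2.56 and CACNA1B, the N-type pore, at 2.08) and 1 lower (CACNA1E, at least 2.58-fold). Of the other beta subunits CACNB4 was higher, at least 1.98-fold. Of the 14 RGK partners tested, those higher included CALM3, a calmodulin gene, and the 14-3-3 gene SFN, and 4 were lower (EZR at -3.05, and the 14-3-3 genes YWHAB, YWHAG and YWHAH). The genes in these last counts, and STAC, STAC2 and STAC3, were named after their values were seen.

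**Figure D5:**
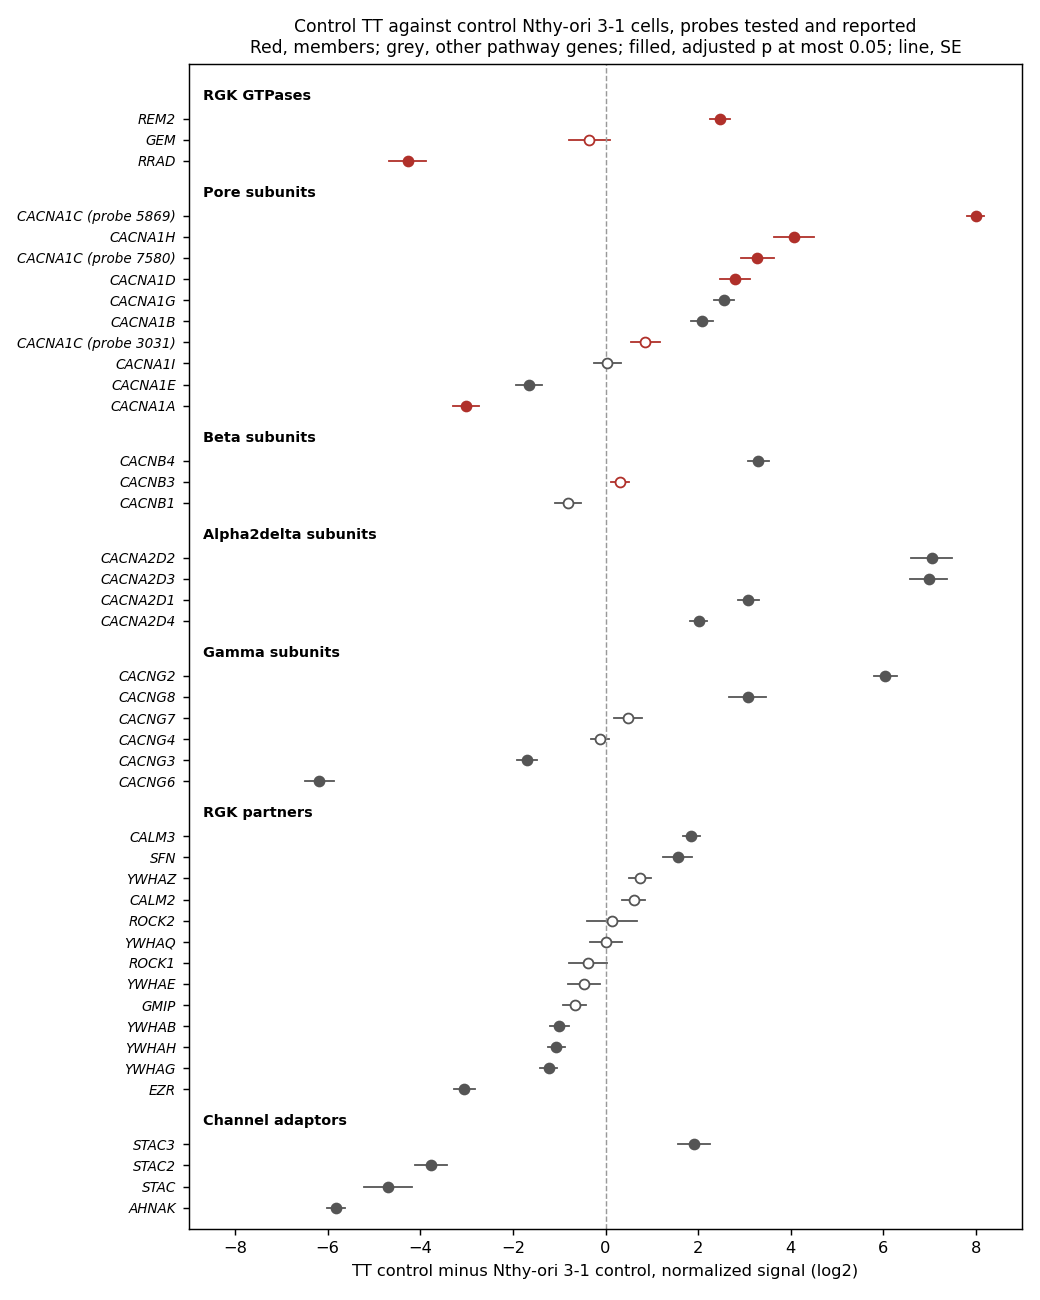
Log2 difference, TT control minus Nthy-ori 3-1 control (x axis), of the probes tested and reported, by class, with members in red, other genes of the list in grey, lines for the SE and filled symbols for an adjusted p of 0.05 or less. RRAD (-4.27) and REM2 (2.47) lie on opposite sides, and GEM (-0.35) is open near 0; differences of probes below background in a line are fitted values and not bounds.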

How the data were processed

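The authors deposited Agilent Feature Extraction files (SurePrint G3 8×60K, version 10.10.1.1, hg19 probe positions), whose processed signals are linear intensity values with background subtracted, and a table of log2 values. The latter follow the log2 median signal of each array (r of at least 0.998) and were used as an alternative. Control and outlier spots were left out, spots of a probe averaged, and log2 processed signals of the 8 arrays quantile normalized together. Each comparison was fitted alone in limma 3.58.1 (R 4.3.3) over probes well above background on at least 2 of its 4 arrays, with Benjamini-Hochberg adjustment. Treatment fits held the replicate number as a block: equal title numbers in a line shared a slide (TT source names carry other numbers, which pair the same arrays), and replicate differences of control and treated arrays correlated at 0.785 (Nthy-ori 3-1) and 0.329 (TT). The methods speak of biological replicates, but the labels do not say so. Treatment p-values measure how far the 2 replicate differences lie apart, and those between control cells the spread between 2 arrays a group. Both are moderated by limma over the probes tested. "At least" folds set the bright group's mean against, per dim array, the higher of the probe's signal and the lowest signal well above background. They hold for the main setting and make no allowance for error in the bright mean. An adjusted p printed beside such a fold tests the fitted difference and not the bound. All 10 members were named, every probe, and the brightest stood for a gene; of the other genes, the 5 with the largest difference among those that passed, and the 5 most correlated with GEM. Members, lists and the filter were chosen with earlier results of these data known. Results of some genes in the lists are not reported here. The fits were tested on simulated data.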

Additional observations from a re-analysis of the deposited data

How the results depend on the processing

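Over the alternatives, the member probes kept direction and side of the threshold in 300 of 322 cases, passed newly in 14 and changed sign in 8, none of which passed. In the treatment comparisons no probe passed in the main setting, so the same side there means not called again. In alternatives that called no probe at all, that side was fixed for every member. The changes of sign with pre-miR-375 were CACNA1C (A_23_P373031), from -0.28 to 0.39, and CACNA1H, from -0.06 to 0.41, with a replicate left out. With antagomiR-375, CACNA1C (A_33_P3249394) gave 0.01 with normexp and from -0.61 to 0.51 with a replicate left out. CACNA1D (from -0.11 to 0.89) and CACNB3 (from -0.23 to 0.16) also changed sign there with a replicate left out. Between control cells, CACNB3 gave -0.08 on the deposited values, which were not normalized again across the lines. GEM gave from -0.94 to 0.25 (without ORI_CTL replicate 2) there with an array left out. Probes called with pre-miR-375 numbered 0, and 2655 when well above background on all 4 arrays, 4219 with normexp, 3058 on the median signal without background correction, 3317 on the deposited values, 4866 with an intensity trend and 2319 with both lines fitted together. With antagomiR-375 they numbered 0, and 107 with normexp and 768 with the trend. The unadjusted p was 0.05 or less for 7413 and 4147 probes. Without the replicate block both counts stayed at 0, and GEM's adjusted p was 0.627 in Nthy-ori 3-1. With a pair left out, the line tested kept 1 array a group and the spread came from the other line alone. Only the sizes of the differences can be read from those fits. Between control cells the count of 14134 ranged from 6820 (without TT_CTL replicate 1; 6928 without replicate 2) to 15398 with an array left out. The deposited values called 5281 higher and 11148 lower (32.1% higher, against 49.9%), with a median of all probes of -0.32, against -0.03. The 7 member probes called there passed in every alternative that tested them. With normexp, RRAD shrank to -1.18, CACNA1A to -0.66 and CACNA1C (A_33_P3297580) to 0.67. On the deposited values, CACNA1D shrank to 0.54 and CACNA1C (A_33_P3825869) to 3.97. Each of these smaller values lies below the minimum fold given for its probe, which holds for the main setting only. The causes were not tested. The 2 arrays a group limit the precision, and probes below background have only a bound.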
